A study of Homo sapiens with 9 samples.

Results

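EGFR, 4 of its ligand genes, the receptor ERBB3 and the feedback inhibitor ERRFI1 were followed across MDA-MB-231 cells given YM-155 and untreated cells. The gene set was a list of 9 symbols (EGFR, ERBB2, ERBB3, AREG, EREG, HBEGF, TGFA, BTC and ERRFI1), and a gene was measured when an array probe set carried that symbol and no other, the brightest probe set standing for the gene. By that rule 7 of the 9 genes were measured, each by 1 probe set, among 22109 genes in all. The only probe set that names ERBB2 also names a second gene, and AREG is not among the symbols of the probe table, so both are not analysed here.

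MDA-MB-231 is an established line of human breast cancer cells. One group received YM-155 (sepantronium bromide) at 14.6 ng/ml for 20 h, the concentration stated as its LC50. A second received 83 ng/ml in increments by 8 h, at which point no obvious cell death was seen. The control group was untreated, with no time or vehicle given. Each group had 3 Affymetrix whole-transcript arrays of total RNA, called triplicates, and no source says whether the triplicates were grown as separate cultures. The p-values therefore cover only the spread among these samples, which may be technical. Dose and time differed together between the treated groups and cannot be told apart. All arrays came from whole cultures, in which fewer cells of a kind and less RNA per cell cannot be told apart.

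EGFR is a receptor tyrosine kinase of the ErbB family. Its ligands, among them epiregulin (EREG), heparin-binding EGF-like growth factor (HBEGF), transforming growth factor alpha (TGFA) and betacellulin (BTC), are made as membrane-bound precursors that proteases such as ADAM17 release. Binding drives receptor dimers that signal through RAS and ERK and through PI3K and AKT, and ERK signalling in turn induces genes that dampen the receptor, one of which is ERRFI1 (also called MIG6), a cytoplasmic protein that binds and inhibits the EGFR kinase. MDA-MB-231 cells are known for high EGFR and an activated RAS pathway.

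Values are RMA summaries on the log2 scale, and changes were tested with limma over all 22109 genes, a gene being called higher or lower at a Benjamini-Hochberg adjusted p under 0.05. Array medians lay between 3.11 and 3.20. Control replicate 3 was the farthest from its group, with an SD of the gene-wise differences of 0.312 and 0.313 (log2) to each other control, where controls 1 and 2 gave 0.187 (11054 brighter genes). Replicates 1 and 2 at 8 h were the closest pair (SD 0.147). Of the 7 genes, 5 had exactly the same value on 2 or more arrays, as did 45.1% of all genes. In each of the 5, arrays of 1 group shared a value, as in 27.7% of all genes. The spread within a group can thus be understated.

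As a gauge of background, 95% of 354 olfactory receptor genes, taken as silent in this line, had a mean at or below 3.63. The measured markers of a mesenchymal breast line (VIM, CD44, CAV1, AXL, MSN and SPARC) lay above that level for 5 of 6, SPARC being the exception at 3.28. Of 15 luminal epithelial markers 12 lay above it, with ESR1, PGR and FOXA1 at 2.96, 2.01 and 2.45. Of 9 leukocyte markers 2 did so, CD68 and NKG7, while PTPRC, which defines leukocytes, lay between 1.74 and 1.85 on all arrays. Probe sets differ in their own brightness, so levels are not set against each other between genes.

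Of the 7 measured genes, 4 rose in YM-155-treated cells and 0 fell, and the same 4 were called at 20 h and at 8 h: the ligands EREG and HBEGF, the receptor EGFR, and ERRFI1. EREG rose 3.40-fold at 20 h and 2.95-fold at 8 h, and HBEGF 3.10-fold and 2.72-fold. EGFR rose 1.52-fold and 1.40-fold, and ERRFI1 1.18-fold and 1.31-fold. TGFA, BTC and ERBB3 did not pass the test at either time. Among all genes, 30.3% were called at 20 h (13.1% higher and 17.2% lower) and 12.2% at 8 h (5.93% higher and 6.28% lower). A fit of only the 11054 genes above the median level called 2456 higher and 3694 lower at 20 h. At 8 h it called 1427 and 1603. Genes above that level, where EGFR, EREG, HBEGF, TGFA and ERRFI1 lie, were thus called more often than all genes. The median log2 change of the 7 genes was 0.24 at 20 h and 0.38 at 8 h, against 0.028 and -0.0030 over all genes. At both times this median is the change of ERRFI1 alone, whose calls depended on the scaling of the arrays. It is therefore not a measure of a shift of the whole set. Both comparisons share the same 3 control arrays.

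Some markers of other cells were also called at 20 h, when 30.3% of all genes were (13.1% higher and 17.2% lower). At 8 h 12.2% of all genes were called (5.93% higher and 6.28% lower). For the luminal and leukocyte lists, which are short, the part called higher at 20 h was above the share of all genes. The same held for the luminal list at 8 h. Of 15 luminal markers 3 were higher and 1 lower at 20 h, and 3 higher and 0 lower at 8 h. Their summed log2 level lay between 71.3 and 71.8 at 20 h, between 68.4 and 70.2 at 8 h and between 67.9 and 70.0 in controls. Of 9 leukocyte markers 3 were higher at 20 h and 0 at 8 h (CD14, CD68 and CD3D), with sums of 32.7 to 33.8 at 20 h, 31.9 to 32.3 at 8 h and 30.9 to 31.6 in controls. CD14 and CD3D averaged 3.46 and 3.27 over the 9 arrays, below the background gauge of 3.63. Of 6 endothelial and stromal markers 0 were higher and 1, KDR, lower at 20 h. The part of these markers in the results was not tested.

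**Figure D1:**
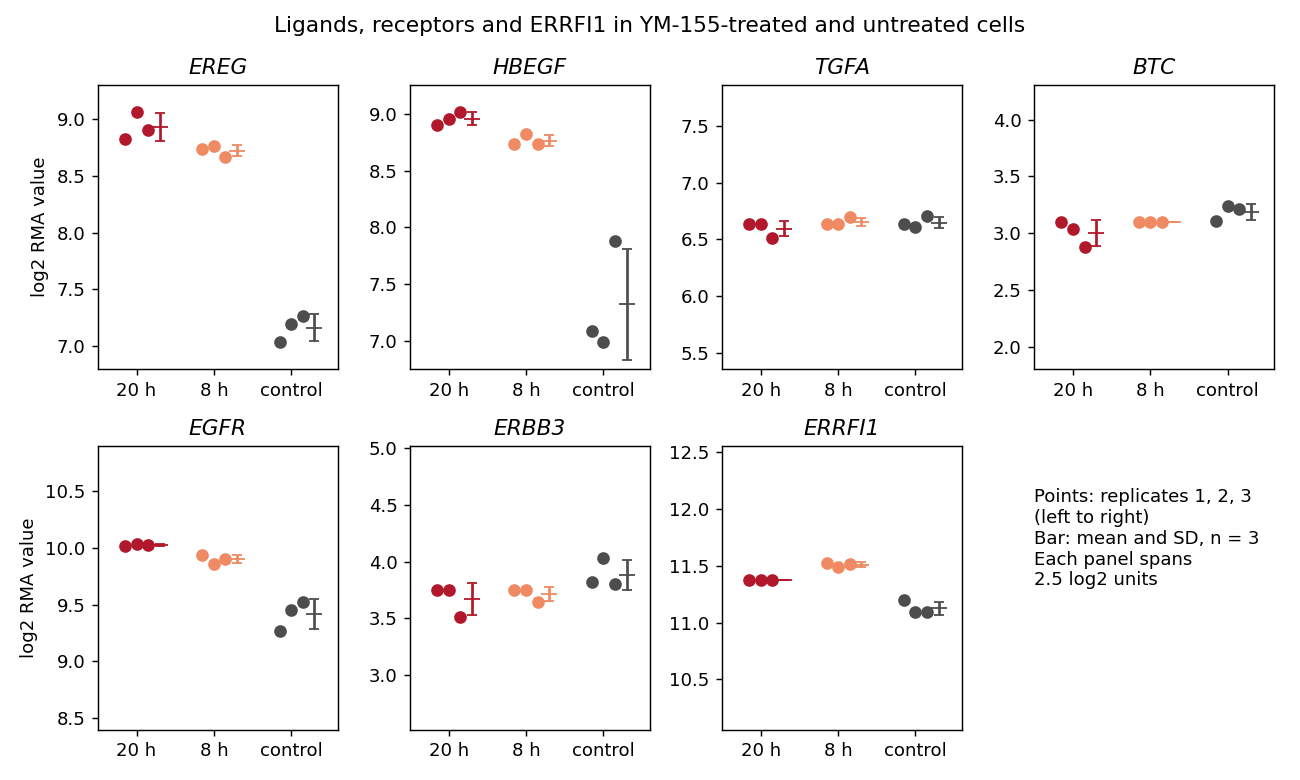
Log2 RMA values (vertical axis) of the 7 measured genes on each array, with 20 h, 8 h and control groups from left to right on the horizontal axis; points are the 3 replicates and the bar beside them is the mean and SD (n = 3), and every panel spans the same number of log2 units. EREG and HBEGF lie well above the controls in both treated groups, EGFR and ERRFI1 lie above them by less, and HBEGF in control replicate 3 (7.88) stands apart from the other controls.

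Among the ligands, EREG, which binds EGFR and ERBB4, had values of 8.83, 9.07 and 8.90 at 20 h, 8.74, 8.76 and 8.67 at 8 h, and 7.04, 7.19 and 7.26 in controls. Every treated array thus lay above every control, a split in that direction that 19.2% of all genes showed at 20 h and 12.9% at 8 h. The mean was 8.93 ± 0.12 at 20 h against 7.16 ± 0.12 in controls, a log2 change of 1.77 (SD, n = 3; SE 0.09, limma adjusted p = 5.57e-07). At 8 h it was 8.72 ± 0.05, a change of 1.56 (SD, n = 3; SE 0.09, limma adjusted p = 9.72e-06). By size of rise EREG ranked 155 of 22109 genes at 20 h and 58 at 8 h.

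HBEGF, whose product binds EGFR and ERBB4 and also heparan sulfate, had values of 8.90, 8.95 and 9.02 at 20 h, 8.74, 8.82 and 8.74 at 8 h, and 7.09, 6.99 and 7.88 in controls. Here too the treated arrays all lay above the controls, but the controls did not lie together: replicate 3 exceeded the mean of the others by 0.84. The log2 change was 1.63 at 20 h (SE 0.19, limma adjusted p = 9.97e-05) and 1.44 at 8 h (SE 0.19, limma adjusted p = 0.00104), and without control replicate 3 it was 1.91 and 1.72. That array was also higher, by a median of 0.38, for 10 genes that respond to ERK signalling, described further on. In the other gene lists used here this median lay between -0.05 (receptor attenuation) and 0.15 (adaptors, RAS and ERK). The median over all genes is not given here, and the cause was not tested. The control SD of HBEGF was 0.49, against 0.12 for EREG. In order of size, HBEGF ranked 189 at 20 h and 78 at 8 h.

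TGFA, a ligand of EGFR made by many epithelial tumours, had values of 6.63, 6.64 and 6.52 at 20 h, 6.63, 6.63 and 6.70 at 8 h, and 6.63, 6.61 and 6.70 in controls. The 3 groups overlapped. Its log2 change was -0.05 at 20 h (95% interval -0.22 to 0.11, limma adjusted p = 0.649) and 0.01 at 8 h (-0.16 to 0.17, limma adjusted p = 0.978), so rises above 1.13-fold lay outside both intervals. One value, 6.63, was shared exactly by 4 of the 9 arrays.

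BTC, a ligand of EGFR and ERBB4, had values of 3.09, 3.04 and 2.87 at 20 h, 3.09 on all 3 arrays at 8 h, and 3.11, 3.24 and 3.21 in controls. It lay within the range of the olfactory receptor genes, of which 88.1% had a lower mean. Both treated groups lay just below the controls, a split in that direction that 21.4% of genes showed at 20 h and 14.5% at 8 h. The differences of -0.18 at 20 h (95% interval -0.37 to -0.00041, limma adjusted p = 0.128) and -0.09 at 8 h (-0.27 to 0.09, limma adjusted p = 0.583) did not pass the test.

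**Figure D2:**
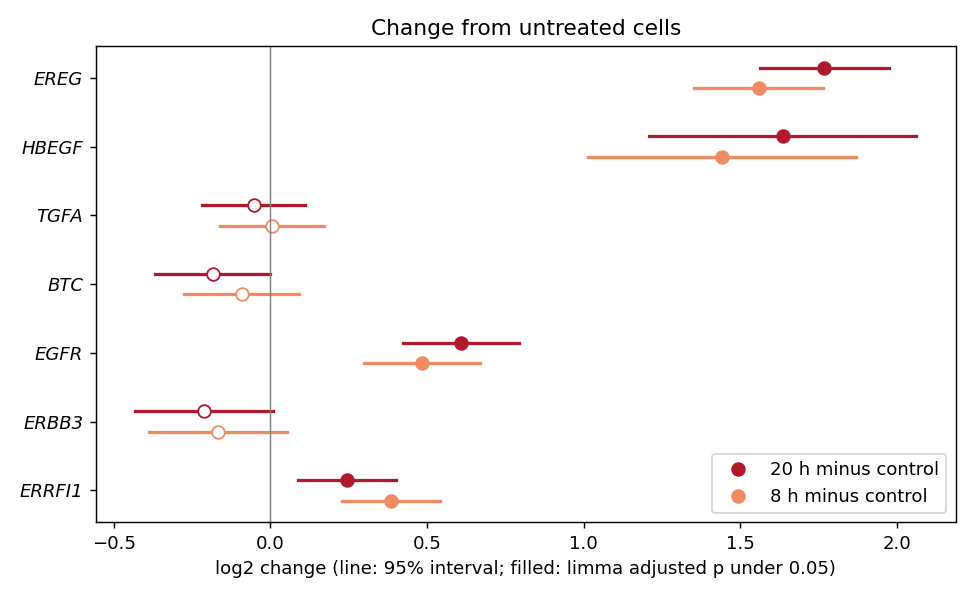
Log2 change from untreated cells (horizontal axis) for each measured gene (vertical axis), at 20 h (upper point) and 8 h (lower point); lines are limma's 95% intervals and filled points passed an adjusted p of 0.05. EREG and HBEGF lie between 1.44 and 1.77, EGFR and ERRFI1 between 0.24 and 0.61, and the intervals of TGFA and ERBB3 include 0.

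In the RefSeq annotation of GRCh38.p14, EPGN, EREG, AREG and BTC are consecutive protein-coding genes on chromosome 4. AREG was not measured. Of the 3 measured neighbours EREG was called and the others were not: EPGN, which encodes the ligand epigen, differed by 0.14 at 20 h (limma adjusted p = 0.463) and 0.10 at 8 h (limma adjusted p = 0.741), and BTC as given above. The other measured genes lie on chromosomes 1, 2, 5, 7 and 12.

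The RefSeq promoter windows (GRCh38.p14, 250 bases before the start site to 50 after) are shown for the 4 measured ligand genes, so that the pair that rose can be set beside the pair that did not. They were searched on both strands for the cyclic AMP response element (TGACGTCA), the AP-1 site (TGANTCA), the EGR1 site (GCGNGGGCG), the E-box (CANNTG), the CArG box of serum response factor and the NF-kB site, both of these by their usual consensus. Capitals mark every match, on the strand of the gene as printed, 5′ to 3′.
EREG, chr4:74364895-74365194, plus strand: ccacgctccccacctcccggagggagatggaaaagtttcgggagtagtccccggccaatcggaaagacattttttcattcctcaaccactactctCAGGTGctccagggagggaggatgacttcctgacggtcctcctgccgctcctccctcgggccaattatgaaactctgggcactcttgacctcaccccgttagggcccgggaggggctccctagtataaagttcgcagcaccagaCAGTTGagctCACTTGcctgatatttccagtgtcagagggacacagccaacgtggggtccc
HBEGF, chr5:140346554-140346853, minus strand: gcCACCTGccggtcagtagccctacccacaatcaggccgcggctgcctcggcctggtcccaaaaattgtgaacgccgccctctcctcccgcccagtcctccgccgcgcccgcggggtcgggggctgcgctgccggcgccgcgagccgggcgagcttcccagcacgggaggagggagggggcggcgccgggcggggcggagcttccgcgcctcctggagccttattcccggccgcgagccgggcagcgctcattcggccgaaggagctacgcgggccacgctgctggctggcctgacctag
TGFA, chr2:70553777-70554076, minus strand: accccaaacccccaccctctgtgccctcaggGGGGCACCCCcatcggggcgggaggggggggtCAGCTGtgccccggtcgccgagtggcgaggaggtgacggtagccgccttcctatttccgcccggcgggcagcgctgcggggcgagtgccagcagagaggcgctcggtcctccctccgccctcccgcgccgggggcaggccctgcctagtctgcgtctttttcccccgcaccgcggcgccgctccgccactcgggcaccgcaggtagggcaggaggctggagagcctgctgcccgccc
BTC, chr4:74794474-74794773, minus strand: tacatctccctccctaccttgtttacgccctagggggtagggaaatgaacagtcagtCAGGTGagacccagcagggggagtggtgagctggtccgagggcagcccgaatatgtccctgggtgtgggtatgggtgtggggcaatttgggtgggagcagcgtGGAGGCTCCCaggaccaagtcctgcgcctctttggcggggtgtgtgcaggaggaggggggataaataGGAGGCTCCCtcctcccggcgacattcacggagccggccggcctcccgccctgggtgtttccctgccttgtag

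The EREG window held 3 E-boxes and the HBEGF window 1. TGFA held 1 E-box and 1 match to the NF-kB consensus, and BTC 1 E-box and 2 matches to that consensus. No window of the 4 held the cyclic AMP response element, the AP-1 site, the EGR1 site or the CArG box, and the windows of EGFR and ERRFI1 held none of the 6 motifs. Among 35116 RefSeq promoter windows, 68.7% held an E-box, 11.3% an NF-kB match, 9.43% an EGR1 site, 7.71% an AP-1 site, 1.85% the cyclic AMP response element and 1.29% a CArG box. The motifs did not overlap one another in these windows. They are matches of letters in a short stretch and say nothing on sites elsewhere or on binding.

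Of the receptors, EGFR had values of 10.01, 10.03 and 10.03 at 20 h, 9.94, 9.86 and 9.90 at 8 h, and 9.27, 9.45 and 9.53 in controls. All treated arrays lay above all controls, and all 20 h arrays above all 8 h arrays. The last split, which 17.8% of genes showed, was also seen for EREG and HBEGF. The log2 change was 0.61 at 20 h (SE 0.08, limma adjusted p = 0.000285), which is 1.52-fold (95% interval 1.34 to 1.73). At 8 h it was 0.48 (SE 0.08, limma adjusted p = 0.00412), or 1.40-fold (1.23 to 1.59). The SD was 0.01 at 20 h and 0.04 at 8 h, against 0.13 in controls (n = 3 each).

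ERBB3, a receptor for neuregulins with little kinase activity of its own, is a gene mainly of luminal breast cells. Its values were 3.75, 3.75 and 3.51 at 20 h, 3.75, 3.75 and 3.64 at 8 h, and 3.82, 4.03 and 3.80 in controls, close to the background gauge of 3.63. The treated arrays lay just below the controls, a split that 21.4% of genes showed at 20 h and 14.5% at 8 h. Its log2 change was -0.21 at 20 h (95% interval -0.43 to 0.01, limma adjusted p = 0.144) and -0.17 at 8 h (-0.39 to 0.05, limma adjusted p = 0.361), which did not pass. The luminal markers, with which ERBB3 is usually found, had 3 of 15 genes higher and 1 lower at 20 h (all genes: 13.1% and 17.2%). At 8 h 3 were higher and 0 lower (all genes: 5.93% and 6.28%).

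ERRFI1 had values of 11.37 on all 3 arrays at 20 h, 11.53, 11.49 and 11.52 at 8 h, and 11.20, 11.09 and 11.10 in controls. The groups did not overlap, and the 8 h arrays were the highest; 20.5% of genes had every 20 h array below every 8 h array. At 20 h the log2 change was 0.24 (SE 0.07, limma adjusted p = 0.0227), or 1.18-fold, and at 8 h 0.38 (SE 0.07, limma adjusted p = 0.00565), or 1.31-fold. The calls depended on the scaling of the arrays. After a further quantile normalization the change was 0.07 at 20 h (limma adjusted p = 0.664) and 0.30 at 8 h (limma adjusted p = 0.0674). Centring each array on its median gave 0.22 at 20 h (limma adjusted p = 0.0528), and the 20 h call also ended without control replicate 2 (limma adjusted p = 0.0724), without 20 h replicate 2 (0.0526) and in a fit blocked on replicate number (limma adjusted p = 0.0512).

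Set directly against each other, 20 h and 8 h cells differed in 22.6% of all genes (8.95% higher and 13.6% lower), while 0 of the 7 genes passed the limma test. Without adjustment, 1 of the 7 had a limma p under 0.05, and it was EREG. EREG was higher at 20 h by 0.21 (95% interval 0.0027 to 0.41, limma adjusted p = 0.143), HBEGF by 0.19 (-0.23 to 0.62, limma adjusted p = 0.535) and EGFR by 0.12 (-0.06 to 0.31, limma adjusted p = 0.343). For ERRFI1 the difference was -0.14 (-0.30 to 0.02, limma adjusted p = 0.194). Within each gene the order of the means was thus 20 h, 8 h, control for EREG, HBEGF and EGFR, and 8 h, 20 h, control for ERRFI1, with the 2 treated groups not told apart by the test in any of them.

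By the root mean square difference of centred log2 values over the 9 arrays, among 11049 genes above the median level, the genes most like EGFR were ZFAND3, ULK1 and FAT1 (0.063 to 0.069). For EREG they were OSER1, LATS2 and PIM1 (0.117 to 0.119). For ERRFI1 they were SLC6A6, SGMS1 and TES (0.042 to 0.048). These are descriptions of the 9 profiles and carry no test.

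The other genes of the pathway were read from 6 lists, which together held 71 measured genes. At 20 h 16 of them were higher and 16 lower (45.1%, against 30.3% of all genes). At 8 h 11 were higher and 6 lower (23.9%, against 12.2%). A fit of only the 11054 genes above the median level called 6150 at 20 h (2456 higher and 3694 lower). At 8 h it called 3030 (1427 and 1603). It called 34 and 19 pathway genes, and how many of the 71 entered that fit is not given here. The shares over all genes are thus lower than those of brighter genes and are not those of genes at a like level. This holds too where single lists are set beside shares of all genes. An excess over genes at a like level was not tested. The lists were also chosen with earlier results of these data known. Leaving out 1 array changed the 8 h count of 17 in the main fit. It was 11 without control replicate 1, 10 without control replicate 2, 11 without 8 h replicate 2 and 10 without 8 h replicate 3. Among all genes the 8 h count also fell in these fits, from 2698 to 1971, 1959, 1840 and 1850 in that order. The pathway count was 12 without 8 h replicate 1, and 15 to 17 without control replicate 3 or any 1 of the 20 h arrays.

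**Figure D3:**
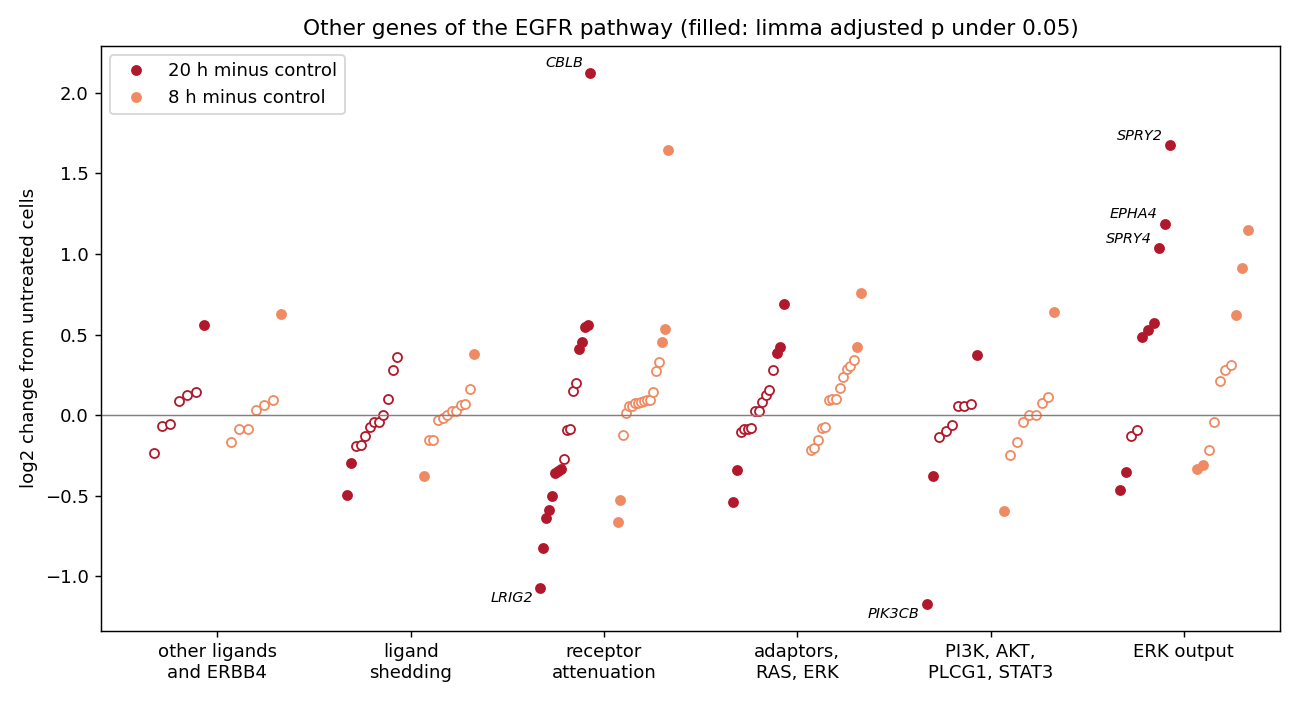
Log2 change from untreated cells (vertical axis) of the 71 measured genes in the 6 pathway lists (horizontal axis), at 20 h (left column of each list) and 8 h (right column), in order of size within a column; filled points passed a limma adjusted p of 0.05. Genes changed by more than 1 at 20 h are named: CBLB and 3 ERK output genes are high, LRIG2 and PIK3CB low, and in the first list 1 filled point stands out at each time, NRG1.

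Of all genes 13.1% were called higher and 17.2% lower at 20 h, and 5.93% and 6.28% at 8 h. Among the other ErbB ligands and ERBB4, 1 of 7 rose and 0 fell at both times. It was NRG1, a neuregulin that binds ERBB3 and ERBB4, whose values were 6.56, 6.89 and 6.56 at 20 h, 6.62, 6.87 and 6.72 at 8 h, and 6.03, 5.97 and 6.32 in controls. It was higher by 0.56 at 20 h (limma adjusted p = 0.00645) and 0.63 at 8 h (limma adjusted p = 0.00940). EGF, EPGN, NRG2, NRG3, NRG4 and ERBB4 did not pass, with log2 changes from -0.23 to 0.14 at 20 h and from -0.16 to 0.10 at 8 h.

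Of the ligand shedding genes, 0 of 12 rose and 2 fell at 20 h (all genes: 13.1% and 17.2%). At 8 h 1 rose and 1 fell (all genes: 5.93% and 6.28%). The medians were -0.06 at 20 h and 0.01 at 8 h. ADAM17, the main sheddase of EREG, HBEGF and TGFA precursors, was higher at 8 h by 0.38 (limma adjusted p = 0.0175), and lost this call without 8 h replicate 2 (limma adjusted p = 0.065) or 3 (0.0641). At 20 h its change was -0.04 (limma adjusted p = 0.756). ADAM10, a related protease, fell by 0.50 at 20 h (limma adjusted p = 0.0294), and lost this call without any 1 of the 20 h arrays or without control replicate 1 or 2 (limma adjusted p from 0.0529 to 0.0978). RHBDL2, a rhomboid protease, fell by 0.30 at 20 h and 0.38 at 8 h, the 20 h call ending without control replicate 1 or 2 or 20 h replicate 1 or 2 (limma adjusted p from 0.0595 to 0.0866) and the 8 h call without control replicate 1 or 2 or any 1 of the 8 h arrays (0.0524 to 0.0638).

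Among 18 genes of receptor attenuation and trafficking, 5 rose and 8 fell at 20 h (all genes: 13.1% and 17.2%). At 8 h 3 rose and 2 fell (all genes: 5.93% and 6.28%). The median changes were -0.18 at 20 h and 0.09 at 8 h. CBLB, a ubiquitin ligase that marks activated EGFR for degradation, had values of 7.75, 7.92 and 8.05 at 20 h, 7.42, 7.36 and 7.49 at 8 h, and 5.59, 5.85 and 5.91 in controls. The 3 groups stood apart from one another. Upward splits from the controls were seen in 19.2% of genes at 20 h and 12.9% at 8 h. From 8 h to 20 h they were seen in 17.8%. Its log2 change was 2.13 at 20 h (SE 0.11, limma adjusted p = 5.05e-07) and 1.65 at 8 h (SE 0.11, limma adjusted p = 1.70e-05). LRIG2 and LRIG3, of a family of transmembrane proteins that act on receptor tyrosine kinases, fell by 1.07 and 0.82 at 20 h and by 0.53 and 0.66 at 8 h. The LRIG2 call at 8 h ended without control replicate 1 or 2 or any 1 of the 8 h arrays (limma adjusted p from 0.0551 to 0.0694). USP8, a deubiquitinase of endosomal receptors, fell by 0.64 at 20 h (limma adjusted p = 0.000134) and differed by 0.08 at 8 h (limma adjusted p = 0.635).

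Adaptor, RAS and ERK cascade genes gave 3 of 15 higher and 2 lower at 20 h (all genes: 13.1% and 17.2%). At 8 h 2 were higher and 0 lower (all genes: 5.93% and 6.28%). The medians were 0.03 at 20 h and 0.10 at 8 h. NF1, which turns RAS off, rose by 0.43 at 20 h and 0.76 at 8 h. KSR1, a scaffold of the ERK cascade, rose by 0.69 at 20 h, and PTPN11, a phosphatase that carries receptor signals to RAS, fell by 0.54. SOS1, an exchange factor that turns RAS on, rose by 0.43 at 8 h, and lost this call without control replicate 1 or 2 or 8 h replicate 3 (limma adjusted p from 0.0664 to 0.0674). Of the PI3K, AKT, PLCG1 and STAT3 list, 1 of 9 rose and 2 fell at 20 h, against the same shares of all genes. At 8 h 1 rose and 1 fell. The medians were -0.06 at 20 h and -0.0012 at 8 h. PIK3CB, a catalytic PI3K subunit, fell by 1.17 at 20 h and 0.59 at 8 h, while PIK3R1, a regulatory subunit, rose by 0.38 at 20 h and 0.64 at 8 h. AKT1 fell by 0.38 at 20 h, and lost this call without control replicate 1 or 20 h replicate 1 or 2 (limma adjusted p from 0.0552 to 0.065).

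ERK output genes, which are used as a readout of ERK signalling, gave 6 of 10 higher and 2 lower at 20 h. Of all genes 13.1% were higher and 17.2% lower. At 8 h 3 were higher and 2 lower (all genes: 5.93% and 6.28%). The medians were 0.50 at 20 h and 0.25 at 8 h. SPRY2, a feedback inhibitor of receptor signalling, had values of 10.69, 10.64 and 10.60 at 20 h, 10.11, 10.11 and 10.13 at 8 h, and 8.74, 8.85 and 9.30 in controls. As for HBEGF, the highest control was replicate 3. SPRY2 rose by 1.68 at 20 h (limma adjusted p = 6.32e-06) and 1.15 at 8 h (limma adjusted p = 0.000372), the receptor gene EPHA4 by 1.19 and 0.91, and SPRY4, a relative of SPRY2, by 1.04 and 0.62. The SPRY4 call at 8 h ended without any array other than control replicate 3 (limma adjusted p from 0.054 to 0.121). PHLDA1 rose by 0.57 at 20 h. EPHA2 rose by 0.53 and ETV5 by 0.48 at 20 h. The 2 genes that fell encode phosphatases of ERK: DUSP6 fell by 0.46 at 20 h (limma adjusted p = 0.00148) and 0.31 at 8 h (limma adjusted p = 0.0334), and DUSP4 by 0.35 (limma adjusted p = 0.0157) and 0.33 (limma adjusted p = 0.0440). EPHA2, ETV5, DUSP4 and DUSP6 fell outside the naming rule, were named after their values were seen, and were not recomputed under the alternatives.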

How the data were processed

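RNA from 9 samples of MDA-MB-231 cells, 3 in each of 3 groups given by the sample titles, was measured on 1 array each. Per the submitters' processing notes, the authors made the deposited log2 values with RMA in Affymetrix Expression Console. Software versions, the normalization settings and the genome build are not given in the sources used here.

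Of 53617 probe sets, 25713 were in the platform's gene table, 23558 of them with 1 symbol. Each of 22109 genes was represented by its brightest probe set (mean of the 9 arrays), a choice that mattered for 618 genes. Symbols were updated through gene identifiers, which changed 3. No further normalization, filter or pseudocount was applied. The number of arrays limits the precision.

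One model of 3 group means over the 9 arrays was fitted with lmFit and eBayes in limma 3.58.1 (R 4.3.3), with 6 residual and 4.01 prior degrees of freedom. Tests were two-sided, with Benjamini-Hochberg adjustment across the 22109 genes. Exact permutation of 3 against 3 arrays has a smallest p of 0.1 and was not used. The script was tested on simulated data of the same design with 200 genes changed in each treated group. There a log2 change of 1 was recovered for 96.0% of genes at 20 h and 97.0% at 8 h. A change of 0.5 was recovered for 50.0% and 48.0%. The simulated noise was normal and without ties, and in the data 6704 genes were called at 20 h and 2698 at 8 h. These shares therefore do not give the recovery in the data.

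The genes followed, the pathway lists and the naming rule were chosen with earlier results of these data known. Named beyond those genes were up to 4 called genes per list with the largest changes, and every gene of lists with at most 8 measured. Replicate numbers were not taken to pair arrays: deviations of same-numbered arrays from their group means correlated between -0.318 and 0.111. Alternatives were a filter at the median level, all probe sets, averaging the probe sets of each gene, a further quantile normalization, centring arrays, fitting the compared groups alone, weighting arrays, a trended robust variance, a replicate block, 8 h replicates 1 and 2 as 1 sample, and leaving out each array. Promoter windows were taken from RefSeq (GRCh38.p14), which held 8 of the 9 genes. Other steps ran in Python 3.11.15 (pandas 2.3.3, numpy 2.4.6), and plots in matplotlib 3.10.9.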

Additional observations from a re-analysis of the deposited data

Results flagged for a closer look

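None of the 7 measured genes differed between 20 h and 8 h beyond the test, where 22.6% of all genes did. Among the named genes of the pathway lists 11 did, by limma's test of 20 h against 8 h itself (adjusted p under 0.05 over all genes). They were named for large changes from control. Of all 71 pathway genes 20 were called between the treated groups (28.2%), against 22.6% of all genes. Dose and time cannot be told apart in that difference. Higher at 20 h than at 8 h were KSR1 by 0.52, SPRY2 by 0.52 and CBLB by 0.48 on the log2 scale. The genes lower at 20 h had log2 differences of -0.71 for USP8, -0.58 for PIK3CB, -0.54 for LRIG2, -0.53 for SOS1, -0.48 for ADAM10, -0.43 for ADAM17, -0.33 for NF1 and -0.32 for PTPN11. ADAM17 and SOS1 were called higher at 8 h and not at 20 h. The ADAM10 difference lost its call without any 1 of the treated arrays or control replicate 2 (limma adjusted p from 0.0578 to 0.121), and the NF1 difference without 8 h replicate 3 (limma adjusted p = 0.0584). Under a further quantile normalization the SPRY2 difference was 0.35 (limma adjusted p = 0.0834), the NF1 difference -0.25 (limma adjusted p = 0.0519) and the ADAM10 difference -0.43 (limma adjusted p = 0.0697).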

How the results depend on the processing

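Over all alternatives and the 3 comparisons, 387 values of the 7 genes kept the side of the threshold they had, 6 lost their call and 0 reversed. All 6 were of ERRFI1, 5 at 20 h with changes from 0.07 to 0.24 and 1 at 8 h with a change of 0.30. Over all 19 alternatives its change lay between 0.07 and 0.28 at 20 h and between 0.30 and 0.42 at 8 h. The calls of EREG, HBEGF and EGFR held in all 19 alternatives at both times, with a highest limma adjusted p of 0.0022 at 20 h and 0.0217 at 8 h, both of EGFR. BTC and ERBB3 lay below the median level and have no value under that filter. Leaving out 1 array gave 5697 to 6891 called genes at 20 h, 1807 to 2923 at 8 h and 3611 to 5583 for 20 h against 8 h, and for the 71 pathway genes 23 to 35, 10 to 17 and 15 to 25. The fit with a replicate block called 6331, 2204 and 4519 genes, with 3, 4 and 0 of the 7 genes and 30, 15 and 18 of the pathway genes. Among named pathway genes 56 values lost a call, 12 gained one and 0 reversed. The cause of these losses was not tested.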

Other observations

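Among the markers used to check the line, several were called in treated cells. TFF1, a secreted trefoil factor known as an estrogen-responsive luminal gene, had values of 5.30, 5.36 and 5.30 at 20 h, 4.41, 4.16 and 4.27 at 8 h, and 3.94, 3.84 and 4.05 in controls, while ESR1 averaged 2.96 over the 9 arrays. It rose by 1.38 at 20 h (limma adjusted p = 2.18e-06) and by 0.33 at 8 h (limma adjusted p = 0.0381). CLDN3, a tight junction claudin, rose by 1.00 at 20 h, and GRHL2, an epithelial transcription factor, fell by 0.82. CDH1, another luminal marker, rose by 0.45 at 8 h (limma adjusted p = 0.0302) and did not pass at 20 h (0.34, limma adjusted p = 0.0514). Of the mesenchymal markers, CAV1, the main caveolar coat protein, fell by 0.48 at 20 h and 0.38 at 8 h. CD44, a hyaluronan receptor, rose by 0.43 at 8 h, while VIM, AXL, MSN and SPARC were not called at either time. CD68, a lysosomal protein used as a macrophage marker, had values of 10.08, 10.07 and 10.17 at 20 h, 9.62, 9.57 and 9.38 at 8 h, and 9.33, 9.29 and 9.66 in controls, and rose by 0.68 at 20 h. PTPRC did not exceed 1.85 on any array.

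Exactly shared values were common in the deposited table. On all 3 arrays of at least 1 group the value was identical for 3.64% of genes, among them ERRFI1 at 20 h and BTC at 8 h.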
